A study of Mus musculus with 10 samples.

Results

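Messenger RNA of brown adipocytes kept with BML-260 for 3 days was compared with that of cells kept with it for 1 day, gene by gene. The comparison rests on 4 of the 10 libraries in the study, 2 at each time, and on 15212 genes that passed a filter on low counts out of 24640 in the table. All cells were brown adipocytes of C57BL/6 mice, read by RNA sequencing of total RNA, and the labels give no animal age, harvest hour or culture medium. BML-260 is a small molecule marketed for blocking the phosphatase Dusp22, and the labels give no dose for it. The 4 libraries of DMSO, the solvent control, again 2 at 1 day and 2 at 3 days, gave the change over the same time without the compound. From the BML-260 libraries alone, time in culture and time with the compound cannot be told apart, so the difference between both changes was tested for every gene. Whether 2 libraries of a group came from separate cultures or animals is not stated. Every p-value therefore reflects the spread of these libraries alone, and that spread may be technical. The remaining group, ISO at 1 day, entered the filter on low counts, the scaling and the estimate of the spread, and none of the comparisons.

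Brown adipocytes are fat cells rich in mitochondria that burn lipid to make heat, through the uncoupling protein Ucp1 of the inner mitochondrial membrane. Noradrenaline acting on the beta-3 receptor Adrb3 raises cyclic AMP in these cells, which starts lipolysis and turns on thermogenic genes with the coactivator Ppargc1a. Their fat cell character rests on the receptor Pparg and the factor Cebpa, which hold up genes of lipid uptake, lipid droplets and adipokines. Fat cells in culture also lay down extracellular matrix, carry a circadian clock of transcription factors that repress each other, and fold secreted proteins in the endoplasmic reticulum (ER).

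Between 17094354 and 20039083 counts were assigned to genes in the 4 BML-260 libraries, and between 17107063 and 19296922 in those of DMSO. CPM are counts scaled to the depth of the library. The log2 CPM of both libraries in a group gave r from 0.994 upward, a correlation over genes, which are not independent replicates. In the BML-260 libraries the adipocyte markers stood far above counting error, with Fabp4 at 10313 and 10560.5 CPM at 1 day and 5729 and 5647 CPM at 3 days, while of the brown fat markers Ucp1 was at 15.3 and 12.6 CPM at 1 day and 32.8 and 30.7 CPM at 3 days and Dio2 never exceeded 2 counts and fell under the filter. Summed over the 21 of 22 preadipocyte and fibroblast markers in the table, the level was 630.2 and 650.1 CPM at 1 day and 709 and 721 CPM at 3 days. The 18 smooth muscle and pericyte markers summed to 629 CPM in each library at 1 day and to 619 and 667 CPM at 3 days. Sums were 1.48 to 3.95 CPM for skeletal muscle markers, 8.72 to 12.4 CPM for endothelial markers, 7.17 to 9.65 CPM for macrophage and leukocyte markers and 9.65 to 16.3 CPM for Schwann cell markers. The endothelial marker Cdh5 and the macrophage marker Itgam were at 0 in all 4 libraries. In such bulk samples fewer cells of a type and less RNA per cell cannot be told apart. Dusp22, the phosphatase named with BML-260, was at 78.6 and 80.3 CPM at 1 day and 64.00 and 72.4 CPM at 3 days (log2 fold change -0.22 ± 0.06 (SE), edgeR adjusted p = 0.0028), and without the first 3-day library its adjusted p was 0.12. With DMSO its change was -0.09, and the difference of -0.13 did not pass (edgeR adjusted p = 0.37).

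From 1 to 3 days with BML-260, 7051 genes changed at an adjusted p under 0.05, which is 46.4% of the genes tested. Of the genes tested 3486 rose (22.9%) and 3565 fell (23.4%). The changes were mostly small: the median absolute log2 fold change of the changed genes was 0.38, and 682 genes (4.48%) moved by at least 1 on the log2 scale, 239 of them up (1.57%) and 443 down (2.91%). DESeq2 called 418 genes of that size. With DMSO 5313 genes (34.9%) changed over the same time, 2753 up (18.1%) and 2560 down (16.8%), and 249 (1.64%) by at least 1. Both changes shared 3833 genes in the same direction, which is 54.4% of the genes changed with BML-260 and 72.1% of those changed with DMSO, and 82 genes changed in opposite directions. The test of the difference between both changes called 1284 genes (8.44%), 598 higher with BML-260 and 686 lower, and 926 higher and 622 lower when the ISO libraries were left out. Without 1 library that count went as low as 659 (without the second DMSO library at 1 day), and DESeq2 called 721. Among the 7051 genes changed with BML-260, 1061 also differed from DMSO, and 994 of these had the larger absolute change with BML-260. Choosing genes by their call with BML-260 favours that outcome, so the 994 do not compare the size of both changes. A further 223 genes differed from DMSO without a called change with BML-260.

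**Figure D1:**
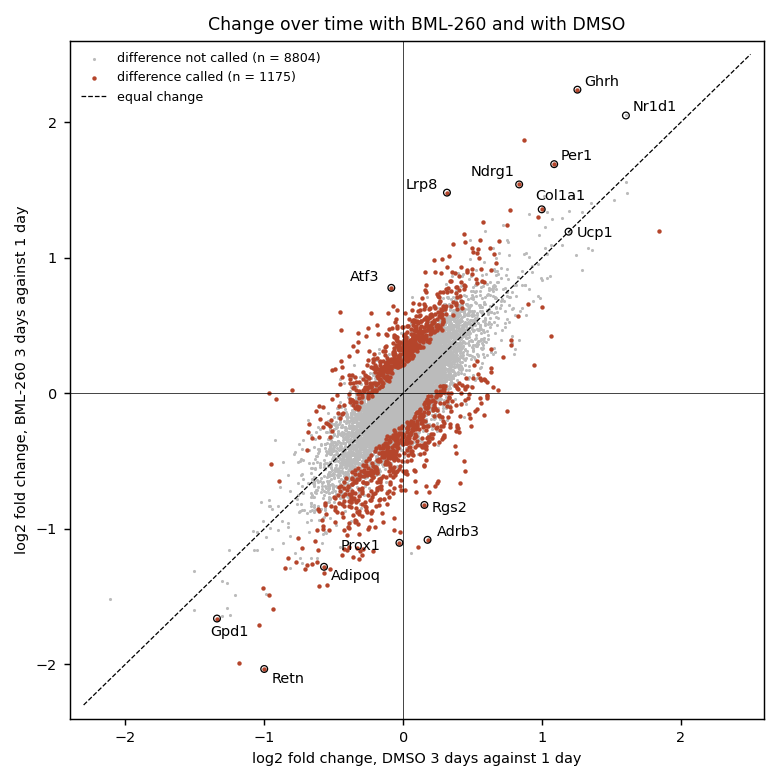
Log2 fold change from 1 to 3 days with BML-260 (vertical axis) against that with DMSO (horizontal axis) for the 9979 genes of at least 10 CPM in 1 of the 4 groups, 1 point a gene, with 1 gene outside the axes. Red points (1175) are genes whose change differed between both by the edgeR test, grey points (8804) the others, and the dashed line is equal change. Ghrh, Lrp8 and Atf3 lie above the line, Retn, Prox1, Adrb3 and Rgs2 below it, and Ucp1 on it.

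Among genes of at least 10 CPM at 3 days whose libraries did not overlap between times, predicted loci left aside, those with the largest rise included a releasing hormone, clock factors and genes known from low oxygen. Ghrh, which encodes growth hormone-releasing hormone (chr2:157329497-157347506 on GRCm38), was at 2.76 and 2.80 CPM at 1 day and 13.3 and 12.98 CPM at 3 days. Both 3-day libraries were over 4 times as high as either 1-day library (log2 fold change 2.24 ± 0.15 (SE), edgeR adjusted p = 2.9e-12). Ndrg1, a stress gene induced by low oxygen, was at 152 and 146 CPM at 1 day and 439 and 426 CPM at 3 days. The groups stood well apart (log2 fold change 1.54 ± 0.05 (SE), edgeR adjusted p = 1.2e-18), and Ndrg1 had the smallest p-value of the named genes. Car9, a carbonic anhydrase of the cell surface that is a textbook target of hypoxia-inducible factor, was at 4.76 and 6.33 CPM at 1 day and 15.5 and 15.1 CPM at 3 days (log2 fold change 1.46 ± 0.13 (SE), edgeR adjusted p = 7.1e-10). Its libraries did not overlap between times, as the rule that chose these genes required. In the DMSO libraries Car9 rose by 1.02, and the difference of 0.44 did not pass (edgeR adjusted p = 0.16). Ghrh rose by 1.25 and Ndrg1 by 0.83 there, and their differences are given below.

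Lrp8, a receptor for reelin and apolipoprotein E, was at 3.47 and 3.75 CPM at 1 day and 10.7 and 9.46 CPM at 3 days. Both 3-day libraries were over 2 times as high as either 1-day library (log2 fold change 1.48 ± 0.15 (SE), edgeR adjusted p = 1.3e-08). Ampd3, an AMP deaminase, was at 44.7 and 45.4 CPM at 1 day and 123 and 124 CPM at 3 days (log2 fold change 1.45 ± 0.06 (SE), edgeR adjusted p = 1.1e-16). Pik3ip1, an inhibitor of phosphoinositide 3-kinase, was at 13.98 and 15.4 CPM at 1 day and 38.2 and 43.6 CPM at 3 days (log2 fold change 1.47 ± 0.09 (SE), edgeR adjusted p = 7.9e-13). In both genes every 3-day library exceeded every 1-day library, as the rule that chose the leading genes required. Ampd3 rose by 1.22 and Pik3ip1 by 1.61 with DMSO, and their differences of 0.23 and -0.14 did not pass (edgeR adjusted p = 0.094 and 0.56). The rest of the 12 leading genes that rose were Nr1d1, Per1, Tfap4, AK155692, Col1a1 and Htra1, with log2 fold changes from 1.34 (Htra1, a secreted serine protease) to 2.05 (Nr1d1). Tfap4 (1.52), AK155692 (1.36) and Htra1 (1.19) rose with DMSO too, and their differences did not pass (edgeR adjusted p = 0.47 to 0.91). Those of Nr1d1, Per1 and Col1a1 are given below. AK155692 carries the name of a sequence record in the table, and its 1-day libraries were themselves apart at 166 and 105 CPM.

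Among genes of at least 10 CPM at 1 day, under the same limits, those with the largest fall included an adipokine and enzymes of fat storage. Resistin (Retn, chr8:3655770-3660110), an adipokine of mouse fat, was at 19.3 and 24.9 CPM at 1 day and 6.20 and 4.68 CPM at 3 days. The highest 3-day value was far below the lowest 1-day value (log2 fold change -2.03 ± 0.14 (SE), edgeR adjusted p = 8.0e-12). Gpd1 (chr15:99717515-99725005), the glycerol-3-phosphate dehydrogenase that makes the backbone of triglycerides, was at 1422 and 1485 CPM at 1 day and 487 and 431 CPM at 3 days. Libraries of the same time lay close together and the times were far apart (log2 fold change -1.66 ± 0.05 (SE), edgeR adjusted p = 4.9e-18). G0s2, an inhibitor of the lipase Pnpla2, was at 351 and 384 CPM at 1 day and 140.1 and 103 CPM at 3 days (log2 fold change -1.60 ± 0.08 (SE), edgeR adjusted p = 4.0e-14). Its libraries did not overlap between times either, as the rule that chose these genes required. The change of G0s2 with DMSO was -1.51, and the difference of -0.09 did not pass (edgeR adjusted p = 0.69). Retn and Gpd1 fell with DMSO too, by 1.00 and 1.34, and their differences of -1.03 and -0.32 passed. That of Gpd1 was lost under DESeq2 (adjusted p 0.087).

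Thrsp, a nuclear protein of lipogenic tissues, was at 296 and 291 CPM at 1 day and 103 and 114 CPM at 3 days (log2 fold change -1.44 ± 0.06 (SE), edgeR adjusted p = 7.7e-17). Rasd1, a small Ras-like GTPase induced by glucocorticoids, was at 14.8 and 15.3 CPM at 1 day and 4.72 and 4.48 CPM at 3 days (log2 fold change -1.71 ± 0.12 (SE), edgeR adjusted p = 2.0e-11). Ffar2, a receptor for short-chain fatty acids, was at 15.9 and 16.05 CPM at 1 day and 5.98 and 5.94 CPM at 3 days (log2 fold change -1.42 ± 0.12 (SE), edgeR adjusted p = 2.6e-10). For each of these genes both libraries at 3 days lay below both at 1 day, as the same rule required. The other 6 leading genes that fell were Itih4, Hdhd3, Anxa8, Aatk, Tmem179 and Arl4a, with log2 fold changes from -1.64 to -1.41. Itih4 (-1.30), Hdhd3 (-1.25), Aatk (-1.21) and Tmem179 (-0.99) fell with DMSO too, and their differences did not pass (edgeR adjusted p = 0.060 to 0.42). Those of Anxa8 (-0.65) and Arl4a (-0.87) passed, and both genes fell with DMSO, by 0.94 and 0.55. Thrsp, Rasd1 and Ffar2 fell by 1.01, 1.04 and 0.60 with DMSO, and their differences of -0.43, -0.67 and -0.82 passed. Exons of Nr1d1, Ndrg1, Car9, Ampd3, Pik3ip1 and Gpd1 overlap those of other genes in the annotation, Nr1d1 those of Thra, and with the use of strand in counting not given, reads of such pairs cannot be told apart.

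**Figure D2:**
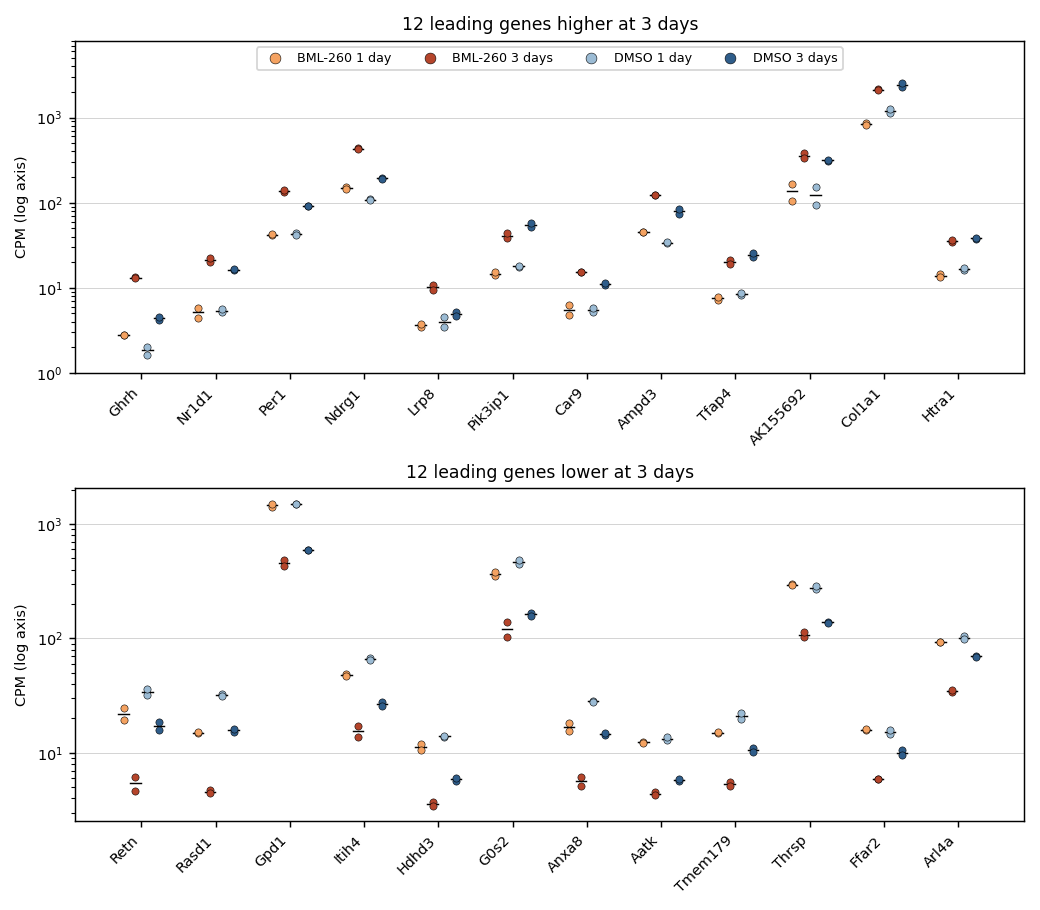
CPM on a log axis of the 12 leading genes that rose (top) and the 12 that fell (bottom) from 1 to 3 days with BML-260, with 1 point a library in the 4 groups and a bar at the mean of 2. Light and dark orange points, BML-260 at 1 and 3 days, do not overlap for any of the 24 genes by the rule that chose them, and blue points give DMSO.

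Most clock genes rose. Of the 19 listed, 18 were tested, and 12 rose and 1 fell, beside 22.9% and 23.4% of all genes; the median log2 fold change was 0.50 against -0.01 over all genes. Per1, a repressor of the clock that also responds quickly to outside signals, was at 41.9 and 42.7 CPM at 1 day and 133 and 139.7 CPM at 3 days (log2 fold change 1.69 ± 0.06 (SE), edgeR adjusted p = 5.7e-17). Nr1d1, the nuclear receptor Rev-erb alpha that represses the activator Arntl, was at 4.41 and 5.86 CPM at 1 day and 20.2 and 22.5 CPM at 3 days (log2 fold change 2.05 ± 0.13 (SE), edgeR adjusted p = 1.2e-12). For both genes the lowest 3-day library was over 3 times the highest 1-day library.

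The repressors Bhlhe40 and Bhlhe41 moved alike. Bhlhe40 was at 143 and 141 CPM at 1 day and 351 and 347 CPM at 3 days (log2 fold change 1.30 ± 0.05 (SE), edgeR adjusted p = 5.7e-17). Bhlhe41 was at 11.8 and 9.87 CPM at 1 day and 25.1 and 25.9 CPM at 3 days (log2 fold change 1.24 ± 0.10 (SE), edgeR adjusted p = 1.3e-10). Their times did not overlap. Rora rose by 0.82 on the log2 scale, Hlf by 0.58, Cry2 by 0.53, Nr1d2 by 0.50, Dbp by 0.50, Cry1 by 0.32 and Nfil3 by 0.23. Npas2 rose by 0.68 from a low level of 1.29 and 1.32 CPM, a call that was lost when any 1 BML-260 library was left out (adjusted p 0.076 to 0.14), under DESeq2 (0.17) and under upper-quartile scaling (0.051). The rise of Cry1 was lost without the second 1-day library (adjusted p 0.098). Per3 fell by 0.14, which was lost without that library (0.17) or the first at 3 days (0.18). The activators Arntl (log2 fold change -0.29, edgeR adjusted p = 0.062) and Clock (-0.10, edgeR adjusted p = 0.13), and Per2 (0.06) and Tef (0.06), did not pass the test. Under upper-quartile scaling Arntl and Clock passed, with log2 fold changes of -0.34 and -0.15. The hour of harvest, which the labels do not give, cannot be told apart from the days here.

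Clock factors bind the E-box, CACGTG, which reads the same on both strands. In the 250 bases before the start of the gene, 4 of the 15 tested clock genes with a RefSeq promoter held this word, beside 6.02% of 32851 promoters and 9.96% of the 9896 tested genes with one. The promoters of 2 that rose, from RefSeq on GRCm38.p6, are shown 5′ to 3′ and end at the base before the start; capitals mark the E-box, 166 bases before the start in Per1 (chr11:69098699-69098948, plus strand, 1 of 2 promoters listed) and 153 in Bhlhe41 (chr6:145865421-145865670, minus strand). A match is a string of letters and not a measured binding site.
Per1: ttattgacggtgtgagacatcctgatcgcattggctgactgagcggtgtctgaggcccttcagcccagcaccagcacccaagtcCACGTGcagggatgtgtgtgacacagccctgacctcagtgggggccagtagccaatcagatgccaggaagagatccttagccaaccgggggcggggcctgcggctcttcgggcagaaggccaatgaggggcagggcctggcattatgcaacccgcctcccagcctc
Bhlhe41: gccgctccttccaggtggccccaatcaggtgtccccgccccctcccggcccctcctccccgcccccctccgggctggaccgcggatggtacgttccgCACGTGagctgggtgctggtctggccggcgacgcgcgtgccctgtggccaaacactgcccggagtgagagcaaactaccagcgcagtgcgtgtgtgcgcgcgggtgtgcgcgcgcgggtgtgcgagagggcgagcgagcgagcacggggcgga

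With DMSO 12 clock genes rose and 2 fell, with a median of 0.35. Per1 was at 44.4 and 42.1 CPM at 1 day and 92.4 and 91.4 CPM at 3 days there, and its rise was larger with BML-260 by 0.60 ± 0.09 on the log2 scale (SE, edgeR adjusted p = 1.8e-04). The rise of Bhlhe40 was larger by 0.33 and that of Bhlhe41 by 0.50 (edgeR adjusted p = 0.0036 and 0.039). For Nr1d1 the difference of 0.45 did not pass (edgeR adjusted p = 0.16). Per3 (-0.24) and Tef (-0.21) differed the other way. The calls were lost without any 1 of 6 libraries for Bhlhe41 (adjusted p 0.067 to 0.20), of 5 for Per3 (0.062 to 0.15) and of all 8 for Tef (0.056 to 0.22). Those of Bhlhe41 and Tef were also lost under DESeq2 (0.12 and 0.092), and that of Tef under 3 further alternatives (0.054 to 0.065).

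Most genes of fat cell identity fell. All 25 listed were tested, and 19 fell, 1 rose and 5 did not pass, with a median log2 fold change of -0.82. Adiponectin (Adipoq), the main adipokine, was at 1025 and 1153 CPM at 1 day and 458 and 438 CPM at 3 days (log2 fold change -1.28 ± 0.06 (SE), edgeR adjusted p = 7.6e-15). Adipsin (Cfd), a complement protease made by fat, was at 414 and 459.6 CPM at 1 day and 181 and 175 CPM at 3 days (log2 fold change -1.30 ± 0.06 (SE), edgeR adjusted p = 1.0e-15). The fatty acid carrier Fabp4 fell from 10313 and 10560.5 CPM to 5729 and 5647 CPM (log2 fold change -0.88 ± 0.04 (SE), edgeR adjusted p = 6.4e-15). In each of these 3 genes both 3-day libraries were far below both 1-day libraries.

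The factor Cebpa fell by 1.29 on the log2 scale, the hormone-sensitive lipase Lipe by 0.95, the glycerol channel Aqp7 by 0.95, the droplet coat Plin1 by 0.31 and the lipoprotein lipase Lpl by 0.16, the last being lost without the first 3-day library (adjusted p 0.074). Pparg, the master receptor of fat cells, was at 370.3 and 376 CPM at 1 day and 386 and 393 CPM at 3 days and did not pass the test (log2 fold change 0.06 ± 0.04 (SE), edgeR adjusted p = 0.24). The triglyceride lipase Pnpla2 did not pass either (log2 fold change 0.02, edgeR adjusted p = 0.74). Within the list the values ran from -2.03 (Retn) to 0.75. With DMSO 17 members fell and 4 rose, with a median of -0.46, and Pparg rose by 0.37 (edgeR adjusted p = 1.1e-07). By the test of the difference 14 members changed lower with BML-260 and 2 higher, beside 4.51% and 3.93% of all genes. Adipoq was at 1379 and 1401 CPM at 1 day and 938 and 935 CPM at 3 days with DMSO, and its change was lower with BML-260 by -0.71 ± 0.08 on the log2 scale (SE, edgeR adjusted p = 9.3e-06). The summed level of the preadipocyte markers given above was higher at 3 days in both arms, 835 and 838 CPM with DMSO, and its part in these values was not tested.

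Pparg binds a direct repeat, searched here on both strands as 2 copies of AGGNCA with 1 base between them, where N is any base. It was found in 0 of 18 promoters of tested members and in 0.338% of all promoters, which says only that these letters are not in this window.

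Genes of lipid droplets and lipolysis went the same way: 16 of 17 were tested, 12 fell and 4 rose (75% and 25%, beside 23.4% and 22.9% of all genes). Their median was -0.52. In the DMSO libraries 10 fell and 4 rose, with a median of -0.33. Monoglyceride lipase (Mgll) was at 142 and 158 CPM at 1 day and 86.4 and 81.3 CPM at 3 days (log2 fold change -0.84 ± 0.06 (SE), edgeR adjusted p = 1.6e-11). Plin4, a droplet coat protein, was at 659.7 and 734 CPM at 1 day and 431 and 379 CPM at 3 days (log2 fold change -0.78 ± 0.06 (SE), edgeR adjusted p = 2.0e-11). Pnpla3, a triglyceride hydrolase of droplets, was at 92.5 and 95.8 CPM at 1 day and 54.3 and 55.9 CPM at 3 days (log2 fold change -0.77 ± 0.06 (SE), edgeR adjusted p = 2.5e-11). None of these groups overlapped. The beta-1 receptor Adrb1 fell by 1.06, while Hilpda, a droplet protein induced by low oxygen, rose by 0.90 and the droplet coat Plin2 by 0.39.

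Of 23 genes of fatty acid and triglyceride synthesis 10 fell and 5 rose (43.5% and 21.7%, beside 23.4% and 22.9% of all genes), with a median of -0.11. Fatty acid synthase (Fasn) was at 1396 and 1393 CPM at 1 day and 926 and 852 CPM at 3 days (log2 fold change -0.65 ± 0.05 (SE), edgeR adjusted p = 2.1e-11). Srebf1, the factor that drives lipogenic genes, fell by 0.55. Fads1, a desaturase of long fatty acids, was at 474 and 452 CPM at 1 day and 625 and 649.7 CPM at 3 days and rose (log2 fold change 0.46 ± 0.05 (SE), edgeR adjusted p = 1.9e-08). The fall of Fasn was larger with DMSO, and the difference was 0.24 ± 0.07 on the log2 scale (SE, edgeR adjusted p = 0.022). That call was lost without the first 3-day BML-260 library (adjusted p 0.15), the second 1-day DMSO library (0.079) or the second 3-day one (0.079).

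Thermogenic genes did not move as 1 group. Of 30 listed 25 were tested, 11 fell and 5 rose (44% and 20%, beside 23.4% and 22.9% of all genes), with a median of -0.19. Ucp1 (chr8:83290352-83298452) was at 15.3 and 12.6 CPM at 1 day and 32.8 and 30.7 CPM at 3 days, so both 3-day libraries were about 2 times the 1-day libraries (log2 fold change 1.19 ± 0.10 (SE), edgeR adjusted p = 1.6e-10). Cidea, a droplet protein of brown fat, was at 144 and 167 CPM at 1 day and 232 and 242 CPM at 3 days (log2 fold change 0.60 ± 0.05 (SE), edgeR adjusted p = 8.6e-10). Pdk4, the kinase that shuts pyruvate dehydrogenase, was at 225 and 251 CPM at 1 day and 441 and 524 CPM at 3 days (log2 fold change 1.02 ± 0.07 (SE), edgeR adjusted p = 3.1e-12). All 3 genes were higher at 3 days in every library.

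Other brown fat genes fell. Adrb3 (chr8:27225776-27250616), the beta-3 receptor, was at 7.34 and 8.18 CPM at 1 day and 3.40 and 3.93 CPM at 3 days (log2 fold change -1.08 ± 0.15 (SE), edgeR adjusted p = 1.7e-06). Ppargc1a was at 51.4 and 50.1 CPM at 1 day and 41.2 and 38.6 CPM at 3 days (log2 fold change -0.35 ± 0.06 (SE), edgeR adjusted p = 4.3e-05). Esrra, a nuclear receptor that works with Ppargc1a on mitochondrial genes, was at 108 and 110.4 CPM at 1 day and 67.9 and 67.9 CPM at 3 days (log2 fold change -0.68 ± 0.05 (SE), edgeR adjusted p = 4.2e-11). Each of these had no overlap between times. Letmd1 fell by 0.58, the potassium channel Kcnk3 by 0.66, the brown fat factors Prdm16 and Ebf2 by 0.62 and 0.31, Elovl3 by 0.41 and Ppara by 0.24. Cox8b rose by 0.44, and Cox7a1 (0.00) and Zic1 (0.16) did not pass, though Zic1 passed with DESeq2 size factors (edgeR adjusted p = 0.045).

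With DMSO 7 thermogenic genes fell and 5 rose. Ucp1 was at 6.05 and 5.10 CPM at 1 day and 12.3 and 13.1 CPM at 3 days there. Its log2 fold change was 1.19 ± 0.13 (SE), beside 1.19 ± 0.10 with BML-260, and the difference was 0.00 (edgeR adjusted p = 0.999). The difference of Cidea was -0.03 (edgeR adjusted p = 0.86). Pdk4 rose by 1.24 and Esrra fell by 0.73 with DMSO. Their differences of -0.22 and 0.04 did not pass (edgeR adjusted p = 0.14 and 0.78). Adrb3 was at 18.98 and 20.6 CPM at 1 day and 21.3 and 23.5 CPM at 3 days with DMSO, where its change did not pass (log2 fold change 0.18 ± 0.09 (SE), edgeR adjusted p = 0.16). The difference between both changes was -1.26 ± 0.18 on the log2 scale (SE, edgeR adjusted p = 8.2e-05). That of Ppargc1a, -0.29 ± 0.09 on the log2 scale (SE, edgeR adjusted p = 0.035), was lost under DESeq2 (adjusted p 0.18), without a filter on low counts (0.051) and without any 1 of 7 libraries (0.059 to 0.15). Exons of Adrb3 overlap those of a predicted gene.

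Most mitochondrial genes fell, each by a small amount. Of 75 tested nuclear genes of oxidative phosphorylation 70 fell and 5 did not pass, with a median of -0.41 and a range from -0.82 to 0.08. Uqcr11, a small subunit of complex III, was at 346 and 399.9 CPM at 1 day and 212 and 211 CPM at 3 days (log2 fold change -0.82 ± 0.05 (SE), edgeR adjusted p = 2.8e-12). Sdhd, an anchor subunit of complex II, was at 534 and 547 CPM at 1 day and 339 and 336 CPM at 3 days (log2 fold change -0.68 ± 0.04 (SE), edgeR adjusted p = 2.9e-12). Ndufb3 of complex I was at 175 and 182 CPM at 1 day and 107 and 104 CPM at 3 days (log2 fold change -0.76 ± 0.05 (SE), edgeR adjusted p = 4.7e-12). The times did not overlap in any of these. The word of the factor NRF1, GCGC and TGCGC with 1 base between them, on either strand, was in 12 of 62 promoters of the list, beside 9.26% of tested genes with a promoter.

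With DMSO 72 of the 75 fell, with a median of -0.42. Over the list the median difference between both changes was 0.01. By the test of the difference 7 members were higher with BML-260 and 2 lower, beside 3.93% and 4.51% of all genes. Of the 2, the difference of Ndufb3 was -0.33 ± 0.07 on the log2 scale (SE, edgeR adjusted p = 0.005), and without the first 3-day DMSO library the adjusted p was 0.057. Rows of genes encoded by mitochondrial DNA took 0.655% and 0.740% of counts at 1 day with BML-260 and 0.360% and 0.398% at 3 days. They took 0.872% and 0.854%, then 0.667% and 0.689%, with DMSO.

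Fatty acid oxidation in mitochondria followed, with 23 of 24 genes lower, 1 that did not pass and a median of -0.54. Etfb, a carrier of electrons from fatty acid oxidation, was at 707 and 766 CPM at 1 day and 446 and 438 CPM at 3 days (log2 fold change -0.74 ± 0.05 (SE), edgeR adjusted p = 1.5e-12). Cpt2, the inner membrane carnitine transferase, was at 162 and 169 CPM at 1 day and 100.6 and 95.7 CPM at 3 days (log2 fold change -0.75 ± 0.05 (SE), edgeR adjusted p = 1.8e-12). Acadm, the medium-chain dehydrogenase, was at 878 and 874 CPM at 1 day and 551 and 548 CPM at 3 days (log2 fold change -0.67 ± 0.05 (SE), edgeR adjusted p = 4.6e-12). No library at 3 days reached a 1-day value in these genes. With DMSO 19 fell and 1 rose, with a median of -0.36. Lower with BML-260 by the test of the difference were 9 of the 24, beside 4.51% of all genes. Among the 9 were Hsdl2 (-0.40) and Acadm (-0.30, lost without the first 3-day DMSO library, adjusted p 0.076).

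Of 17 tested genes of the citric acid cycle 15 fell and 2 did not pass (median -0.45), led by Dld (-0.60), Idh3a (-0.55), Ogdh (-0.52) and Fh1 (-0.49). Of 74 mitochondrial ribosomal protein genes 59 fell and 1 rose (median -0.28), with Mrpl12 at 95.7 and 107 CPM at 1 day and 60.6 and 53.5 CPM at 3 days (log2 fold change -0.83 ± 0.06 (SE), edgeR adjusted p = 2.5e-11). Both lists gave like counts with DMSO, 16 and 59 lower. Of 30 peroxisome genes 17 fell and 5 rose (56.7% and 16.7%, beside 23.4% and 22.9% of all genes), with a median of -0.21. Acox2, a peroxisomal oxidase of branched fatty acids, was at 33.8 and 33.6 CPM at 1 day and 55.4 and 51.2 CPM at 3 days and rose (log2 fold change 0.66 ± 0.07 (SE), edgeR adjusted p = 6.3e-09), more than with DMSO by 0.51 ± 0.11 on the log2 scale (SE, edgeR adjusted p = 0.0034). Ribosomal protein genes of the cytosol moved little, with 25 of 75 lower, 3 higher and a median of -0.08.

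**Figure D3:**
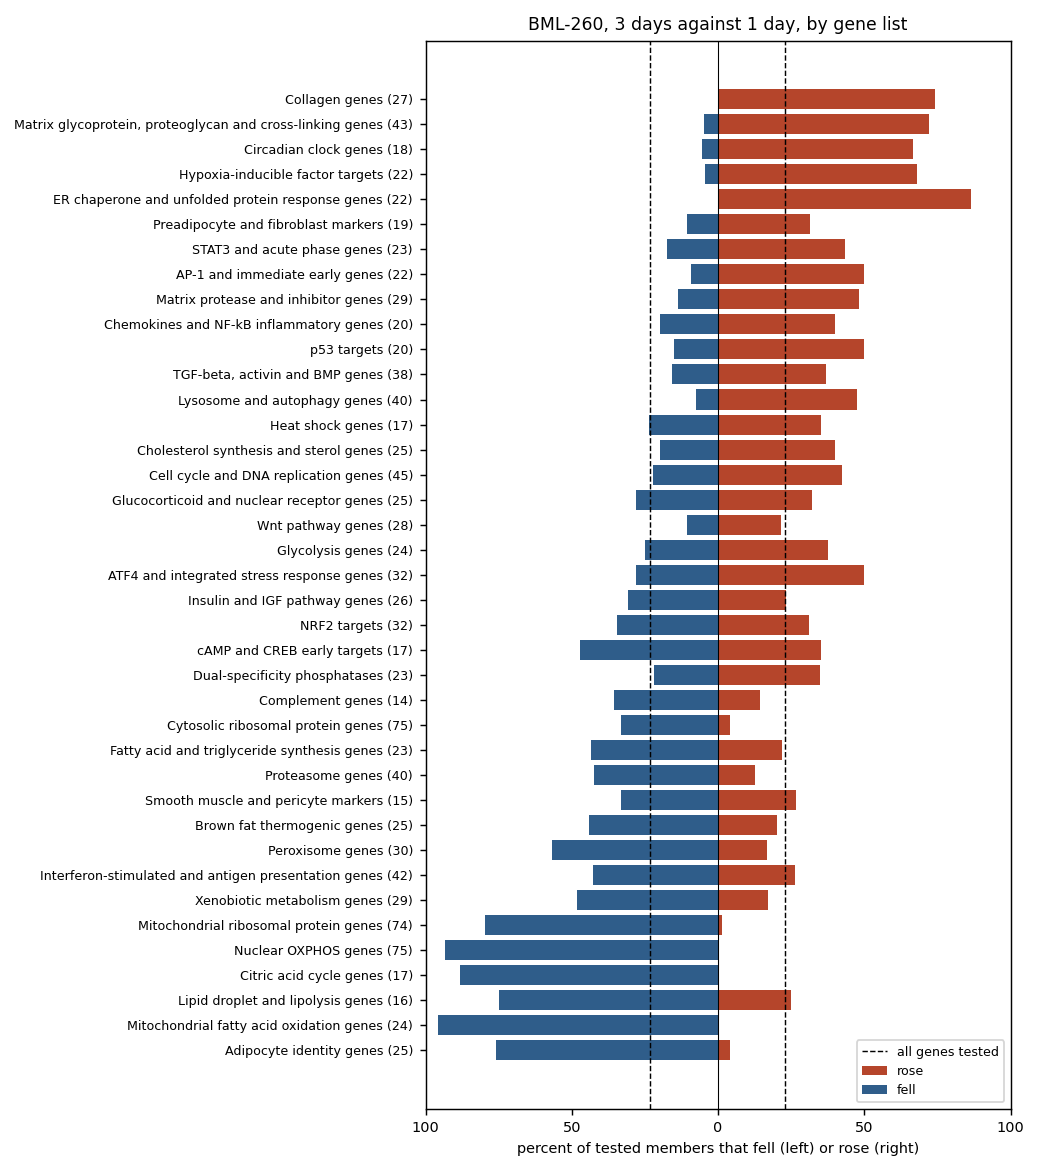
Percent of tested members that rose (red, to the right) and fell (blue, to the left) from 1 to 3 days with BML-260, for each gene list with at least 10 tested members, ordered by median log2 fold change, with the number tested in brackets. Dashed lines mark the share of all genes tested, 22.9% up and 23.4% down. Fatty acid oxidation, oxidative phosphorylation and citric acid cycle lists reach furthest left, and ER chaperones, collagens and matrix glycoproteins furthest right.

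Most genes of the extracellular matrix rose. Of 31 collagen genes 27 were tested, 20 rose and 7 did not pass, with a median of 0.62. Col1a1, a chain of type I collagen, was at 857 and 809 CPM at 1 day and 2159 and 2105 CPM at 3 days (log2 fold change 1.36 ± 0.06 (SE), edgeR adjusted p = 1.0e-15). Col3a1, the fibrillar type III collagen, was at 263 and 205 CPM at 1 day and 594 and 583 CPM at 3 days (log2 fold change 1.33 ± 0.08 (SE), edgeR adjusted p = 3.0e-13). Col1a2 was at 727 and 661 CPM at 1 day and 1323 and 1340.1 CPM at 3 days (log2 fold change 0.94 ± 0.06 (SE), edgeR adjusted p = 1.5e-12). Every 3-day library was above every 1-day library. Col5a2 rose by 0.75.

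Of 43 tested matrix glycoprotein, proteoglycan and cross-linking genes 31 rose and 2 fell (median 0.50). Periostin (Postn) was at 115 and 96.9 CPM at 1 day and 224 and 227 CPM at 3 days (log2 fold change 1.09 ± 0.06 (SE), edgeR adjusted p = 1.2e-13). Fibronectin (Fn1) was at 726 and 671 CPM at 1 day and 1219 and 1215 CPM at 3 days (log2 fold change 0.80 ± 0.05 (SE), edgeR adjusted p = 3.0e-13). Thrombospondin 2 (Thbs2) was at 161 and 154 CPM at 1 day and 326 and 336 CPM at 3 days (log2 fold change 1.07 ± 0.06 (SE), edgeR adjusted p = 7.4e-13). These 3 did not overlap between times. Plod1, which modifies lysines of collagen, rose by 0.65. Among 29 matrix proteases and inhibitors 14 rose and 4 fell (median 0.24), with Mmp11 at 73.7 and 84.3 CPM at 1 day and 164 and 198 CPM at 3 days and rising (log2 fold change 1.19 ± 0.08 (SE), edgeR adjusted p = 1.0e-11) and Adamts15 falling by 1.16.

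The matrix genes rose with DMSO as well, 22 of 27 collagens (median 0.52) and 32 of 43 glycoproteins (median 0.44). The differences of Col3a1 (0.04), Col1a2 (0.01), Col5a2 (0.00), Postn (0.03) and Fn1 (0.00) did not pass, with an SE of at most 0.11. Col1a1 rose more with BML-260, by 0.36 ± 0.08 on the log2 scale (SE, edgeR adjusted p = 0.0064), which was lost under DESeq2 (adjusted p 0.082) and without the second DMSO library at 1 day (0.066). Mmp11 rose more with DMSO, where it was at 84.1 and 97.2 CPM at 1 day and 297 and 354 CPM at 3 days, and the difference was -0.65 ± 0.12 on the log2 scale (SE, edgeR adjusted p = 9.6e-04).

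Fibroblasts are a main source of such matrix. Of 19 tested preadipocyte and fibroblast markers 6 rose and 2 fell (31.6% and 10.5%, beside 22.9% and 23.4% of all genes), with a median of 0.29. Pdgfra, the receptor that marks adipocyte progenitors, was at 27.5 and 24.9 CPM at 1 day and 42.8 and 42.4 CPM at 3 days (log2 fold change 0.70 ± 0.07 (SE), edgeR adjusted p = 9.3e-09). Pdgfrb rose by 0.46 and Sfrp4 by 1.55, and Wnt5a fell by 0.61. Of 15 tested smooth muscle and pericyte markers 4 rose, Tagln and Smtn with the smallest p (0.91 and 0.79), and 5 fell, Mcam among them (-0.58). Those were 26.7% and 33.3%, beside 22.9% and 23.4% of all genes. The part of such cells in the rise of the matrix genes was not tested. Of 38 genes of the TGF-beta, activin and BMP pathways 14 rose and 6 fell (36.8% and 15.8%). Id1, a target of BMP signals, was at 24.6 and 29.6 CPM at 1 day and 10.8 and 9.86 CPM at 3 days (log2 fold change -1.40 ± 0.10 (SE), edgeR adjusted p = 1.2e-11). Id2 fell by 1.16, while Smad3 rose by 0.51 and Fstl1 by 0.61.

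**Figure D4:**
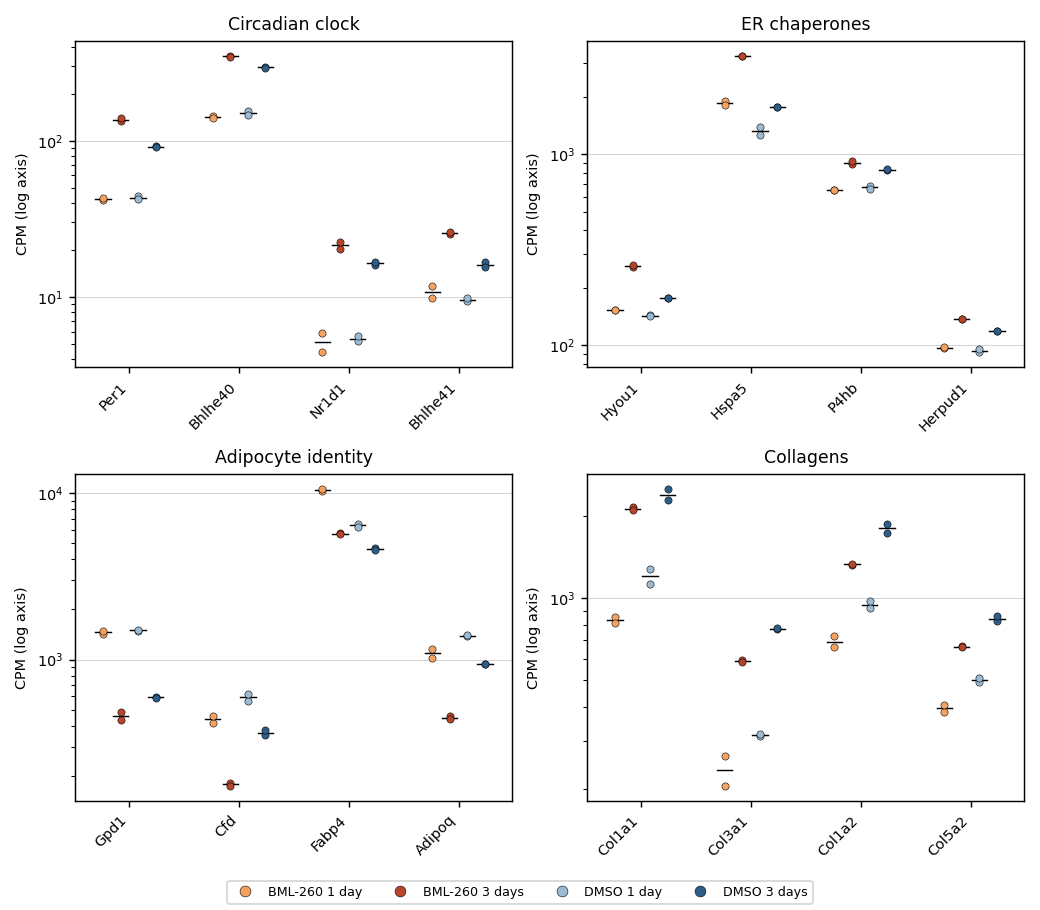
CPM on a log axis, 1 point a library and a bar at the mean of 2, for the 4 members with the smallest p in the lists of clock, ER chaperone, adipocyte identity and collagen genes. From BML-260 at 1 day (light orange) to 3 days (dark orange) all shown clock, ER and collagen genes were higher and all shown identity genes lower, and DMSO (blue) moved the same way in each.

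Most chaperones of the ER rose. Of 23 listed 22 were tested, 19 rose and 3 did not pass, with a median of 0.30. Hspa5, the main ER chaperone BiP (chr2:34771970-34777547), was at 1915 and 1812 CPM at 1 day and 3281 and 3294 CPM at 3 days (log2 fold change 0.82 ± 0.05 (SE), edgeR adjusted p = 1.8e-12). Hyou1, a chaperone that works with it, was at 154 and 152 CPM at 1 day and 258 and 263 CPM at 3 days (log2 fold change 0.77 ± 0.04 (SE), edgeR adjusted p = 3.9e-13). P4hb, a protein disulfide isomerase, was at 651 and 652 CPM at 1 day and 894 and 918 CPM at 3 days (log2 fold change 0.48 ± 0.04 (SE), edgeR adjusted p = 6.0e-10). In each gene the libraries of 1 time lay close together and the times were apart. Herpud1 rose by 0.50, Sdf2l1 by 0.58, Manf by 0.49 and Syvn1, a ubiquitin ligase of ER-associated degradation, by 0.43.

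ER chaperone promoters are known for an element that the factors Atf6 and NF-Y bind. This ER stress element, CCAAT and CCACG with any 9 bases between them, on either strand, was in 8 of the 18 tested members with a promoter, all 8 among the 16 that rose, and in 0.113% of all promoters and 0.141% of tested genes with one. The 8 matches nearest the start are shown 5′ to 3′ on the strand of the gene with 5 bases on each side, from RefSeq on GRCm38.p6; capitals mark the element, which starts with CGTGG and ends with ATTGG where it lies on the opposite strand.
Hspa5 (chr2:34772020-34772048, plus strand): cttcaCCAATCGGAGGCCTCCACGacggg
Syvn1 (chr19:6046527-6046555, plus strand): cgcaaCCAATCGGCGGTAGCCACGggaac
Calr (chr8:84847070-84847098, minus strand): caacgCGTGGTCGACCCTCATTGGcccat
Creld2 (chr15:88819515-88819543, plus strand): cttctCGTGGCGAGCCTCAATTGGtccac
Hsp90b1 (chr10:86705528-86705556, minus strand): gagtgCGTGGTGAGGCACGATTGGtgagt
Dnajc3 (chr14:118937822-118937850, plus strand): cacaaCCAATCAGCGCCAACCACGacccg
Pdia6 (chr12:17266486-17266514, plus strand): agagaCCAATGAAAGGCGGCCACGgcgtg
Canx (chr11:50325795-50325823, minus strand): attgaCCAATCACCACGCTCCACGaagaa

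In that order the genes rose by 0.82, 0.43, 0.37, 0.35, 0.35, 0.24, 0.20 and 0.18 on the log2 scale. Within the 250 bases before the start of Hspa5 (chr2:34771840-34772089, plus strand) the element, in capitals, lies 65 bases before the start.
Hspa5: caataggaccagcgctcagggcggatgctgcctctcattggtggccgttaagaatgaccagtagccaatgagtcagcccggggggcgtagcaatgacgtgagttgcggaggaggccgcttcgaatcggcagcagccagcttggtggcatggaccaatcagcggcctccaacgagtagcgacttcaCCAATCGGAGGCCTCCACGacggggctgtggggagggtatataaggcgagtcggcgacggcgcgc

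With DMSO 14 of the 22 chaperone genes rose (median 0.19), and 5 changed higher with BML-260 by the test of the difference, beside 3.93% of all genes. On the log2 scale, with SE, the difference was 0.40 ± 0.07, edgeR adjusted p = 0.0011 for Hspa5 and 0.46 ± 0.06, edgeR adjusted p = 6.4e-05 for Hyou1. It was 0.47 ± 0.08, edgeR adjusted p = 5.8e-04 for Manf, 0.42 ± 0.08, edgeR adjusted p = 0.002 for Syvn1 and 0.46 ± 0.12, edgeR adjusted p = 0.013 for Sdf2l1. The call for Sdf2l1 was lost under DESeq2 (adjusted p 0.052) and without the first BML-260 library of either time (0.066 and 0.057).

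Of 32 genes of the integrated stress response and its factor Atf4, 16 rose and 9 fell (50% and 28.1%, beside 22.9% and 23.4% of all genes). Their median was 0.06. Ddit3, the stress factor CHOP, was at 415 and 413 CPM at 1 day and 636 and 624 CPM at 3 days (log2 fold change 0.61 ± 0.04 (SE), edgeR adjusted p = 1.2e-11). Ppp1r15a, which restores translation after stress, was at 204 and 205 CPM at 1 day and 316 and 290.3 CPM at 3 days (log2 fold change 0.57 ± 0.05 (SE), edgeR adjusted p = 2.2e-10). Both were higher in all 3-day libraries. Nupr1 rose by 0.51 and Aldh18a1, an enzyme of proline synthesis, by 0.45, the latter more than with DMSO by 0.34 ± 0.06 on the log2 scale (SE, edgeR adjusted p = 0.001). Of 17 heat shock genes 6 rose and 4 fell (35.3% and 23.5%, beside 22.9% and 23.4% of all genes), with a median of 0.11; the mitochondrial chaperones Hspe1 and Hspd1 fell by 0.51 and 0.46, and the cytosolic Hsp90ab1 rose by 0.28.

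Most targets of hypoxia-inducible factor (HIF) rose, 15 of 22, with 1 lower and a median of 0.42. Besides Ndrg1 and Car9, Kdm3a, a histone demethylase, was at 204 and 189.8 CPM at 1 day and 330.4 and 339 CPM at 3 days (log2 fold change 0.77 ± 0.05 (SE), edgeR adjusted p = 7.7e-13). Ddit4, an inhibitor of mTORC1, was at 72.5 and 74.3 CPM at 1 day and 139 and 122 CPM at 3 days (log2 fold change 0.83 ± 0.06 (SE), edgeR adjusted p = 7.8e-12). Mxi1 rose by 0.64 and the growth factor Vegfa by 0.47, while Angptl4, an inhibitor of lipoprotein lipase, did not pass (log2 fold change -0.14, edgeR adjusted p = 0.22) but did without the first BML-260 library at 1 day (0.0077) or the second at 3 days (0.043). The core word ACGTG, on either strand and contained in the E-box, was in 11 of 17 promoters of the list and in 25.1% of tested genes with a promoter. With DMSO 17 rose and 1 fell (median 0.34). Ndrg1 rose less there, being at 111 and 107 CPM at 1 day and 196 and 191 CPM at 3 days, and the difference was 0.71 ± 0.07 on the log2 scale (SE, edgeR adjusted p = 2.6e-07). That of Ddit4 was 0.49 ± 0.08 on the log2 scale (SE, edgeR adjusted p = 3.9e-04), and Angptl4, at 320.1 and 352 CPM at 1 day and 538 and 589 CPM at 3 days with DMSO, differed by -0.88 ± 0.12 on the log2 scale (SE, edgeR adjusted p = 6.6e-05).

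Glycolysis genes were divided, 9 higher and 6 lower of 24 (37.5% and 25%, beside 22.9% and 23.4% of all genes), with a median of 0.06. Pfkfb3, which makes the activator of phosphofructokinase, was at 451 and 449.7 CPM at 1 day and 1115 and 1086 CPM at 3 days (log2 fold change 1.29 ± 0.05 (SE), edgeR adjusted p = 3.8e-17). The glucose carrier Slc2a1 was at 77.9 and 79.9 CPM at 1 day and 168 and 154 CPM at 3 days (log2 fold change 1.03 ± 0.05 (SE), edgeR adjusted p = 1.2e-14). Both were higher in every 3-day library. Pfkfb1, its relative of liver and muscle, fell by 0.81, and Gpi1 rose by 0.61. In the DMSO libraries 8 of these genes rose and 10 fell (median -0.10). By the test of the difference 10 of the 24 were higher with BML-260 and 2 lower, beside 3.93% and 4.51% of all genes. On the log2 scale, with SE, it was 0.38 ± 0.07, edgeR adjusted p = 0.0017 for Slc2a1 and 0.33 ± 0.06, edgeR adjusted p = 0.0016 for Gpi1.

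Of 25 tested genes of cholesterol synthesis and sterol control 10 rose and 5 fell (40% and 20%, beside 22.9% and 23.4% of all genes). Their median was 0.11. Squalene epoxidase (Sqle) was at 208 and 179.6 CPM at 1 day and 309.7 and 301 CPM at 3 days (log2 fold change 0.66 ± 0.07 (SE), edgeR adjusted p = 1.2e-08). Srebf2, the factor that drives this pathway, was at 199 and 198 CPM at 1 day and 273 and 260.6 CPM at 3 days (log2 fold change 0.43 ± 0.05 (SE), edgeR adjusted p = 3.4e-08). Both were higher at 3 days in every library, and Dhcr7 fell by 0.49. With DMSO 4 rose and 9 fell. The differences were 0.54 ± 0.10 on the log2 scale (SE, edgeR adjusted p = 0.001) for Sqle, 0.54 ± 0.07 on the log2 scale (SE, edgeR adjusted p = 1.6e-05) for Srebf2 and 0.40 ± 0.08 on the log2 scale (SE, edgeR adjusted p = 0.0024) for Lss.

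Of 40 tested lysosome and autophagy genes 19 rose and 3 fell (median 0.15), and in the DMSO libraries 19 rose and 4 fell (median 0.14). Sqstm1, the autophagy receptor p62, was at 659 and 693 CPM at 1 day and 1156 and 1237 CPM at 3 days (log2 fold change 0.82 ± 0.05 (SE), edgeR adjusted p = 3.0e-13). Gabarapl1, a protein of autophagosome membranes, was at 162 and 159 CPM at 1 day and 272 and 305 CPM at 3 days (log2 fold change 0.85 ± 0.05 (SE), edgeR adjusted p = 7.9e-13). Npc1, which exports cholesterol from lysosomes, was at 99.2 and 98.4 CPM at 1 day and 171 and 177 CPM at 3 days (log2 fold change 0.82 ± 0.05 (SE), edgeR adjusted p = 1.3e-12). Values of each time lay close together. Ulk1, the kinase that starts autophagy, rose by 0.76, more than with DMSO by 0.36 ± 0.08 on the log2 scale (SE, edgeR adjusted p = 0.0042). Of 40 proteasome genes 17 fell and 5 rose (median -0.11), and in the DMSO libraries 19 fell and 3 rose (median -0.12).

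Interferon-stimulated and antigen presentation genes went both ways. Of 47 listed 42 were tested, 18 fell and 11 rose (42.9% and 26.2%, beside 23.4% and 22.9% of all genes), with a median of -0.24. Gbp3, a guanylate-binding protein of cell defence, was at 26.2 and 21.7 CPM at 1 day and 10.7 and 12.7 CPM at 3 days (log2 fold change -1.02 ± 0.11 (SE), edgeR adjusted p = 3.1e-08). It was lower in both 3-day libraries. Among those that rose, Irf1 was at 77.2 and 81.3 CPM at 1 day and 116 and 123 CPM at 3 days (log2 fold change 0.59 ± 0.05 (SE), edgeR adjusted p = 6.0e-10) and the antigen-presenting H2-Q4, which belongs to a family of near-identical genes whose reads may be shared, rose by 1.03.

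The interferon element, GAAA and GAAA with any 2 bases between them, on either strand, was in 13 of 31 tested members with a promoter, 7 of the 12 that fell and 2 of the 10 that rose, and in 3.07% of tested genes with one. The match nearest the start is shown for 6 genes that fell and both that rose, 5′ to 3′ with 5 bases on each side from RefSeq on GRCm38.p6; capitals mark the element, which shows as TTTC and TTTC where it lies on the opposite strand.
Ifit3, fell (chr19:34583402-34583421, plus strand): gtctgTTTCAGTTTCtactt
Igtp, fell (chr11:58199517-58199536, plus strand): gaactGAAACTGAAAgctgt
Irgm1, fell (chr11:48871430-48871449, minus strand): aaataGAAACCGAAActgat
Bst2, fell (chr8:71537582-71537601, minus strand): aaaatGAAACTGAAAggctg
Gbp2, fell (chr3:142620599-142620618, plus strand): tttagTTTCACTTTCactgt
B2m, fell (chr2:122147543-122147562, plus strand): aacatGAAACTGAAAatggg
Rsad2, rose (chr12:26456558-26456577, minus strand): ccaacTTTCATTTTCagaaa
H2-T23, rose (chr17:36032811-36032830, minus strand): actgcTTTCTCTTTCataaa

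Their log2 fold changes were -0.76, -0.78, -0.51, -0.37, -0.32, -0.13, 0.84 and 0.25 in that order, and those of B2m and H2-T23 did not pass under DESeq2 (adjusted p 0.073 and 0.08). In Gbp3 2 overlapping matches lie 45 and 39 bases before the start of 1 of its 2 promoters (chr3:142559794-142560043, plus strand), in capitals.
Gbp3: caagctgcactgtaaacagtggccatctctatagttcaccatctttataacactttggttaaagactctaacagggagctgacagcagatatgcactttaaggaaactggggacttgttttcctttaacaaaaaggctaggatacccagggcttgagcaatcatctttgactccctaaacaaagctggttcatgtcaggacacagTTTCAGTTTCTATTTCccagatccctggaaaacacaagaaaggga

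With DMSO the same list held 10 genes that rose and 2 that fell (median 0.11). The test of the difference called 6 members lower with BML-260, beside 4.51% of all genes. Gbp3 was at 26.6 and 28.2 CPM at 1 day and 25.2 and 28.9 CPM at 3 days with DMSO and differed by -1.0004 ± 0.15 on the log2 scale (SE, edgeR adjusted p = 1.2e-04). The differences of Gbp2, Igtp and Ifit3 were -0.50, -0.62 and -0.66, and the calls for Igtp and Ifit3 were lost under DESeq2 (adjusted p 0.088 and 0.12). Igtp also lost it without the second 3-day DMSO library (0.12), and Ifit3 without any 1 of 4 libraries (0.15 to 0.22).

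Of 20 tested chemokine and NF-kB genes 8 rose and 4 fell (40% and 20%, beside 22.9% and 23.4% of all genes), with a median of 0.22. Relb rose by 0.68, Nfkb2 by 0.52 and the chemokine Cxcl10 by 1.15. Ccl2, which draws monocytes, was at 13.6 and 14.2 CPM at 1 day and 6.47 and 6.09 CPM at 3 days (log2 fold change -1.15 ± 0.12 (SE), edgeR adjusted p = 1.4e-08) and differed from DMSO, where it was at 25.3 and 29.9 CPM at 1 day and 22.9 and 22.4 CPM at 3 days, by -0.86 ± 0.15 on the log2 scale (SE, edgeR adjusted p = 6.7e-04). Of 23 acute phase genes and targets of Stat3 10 rose and 4 fell (43.5% and 17.4%). Steap4, a metalloreductase of fat, was at 133 and 145 CPM at 1 day and 66.4 and 55.4 CPM at 3 days (log2 fold change -1.20 ± 0.08 (SE), edgeR adjusted p = 2.1e-12). Haptoglobin (Hp) was at 384 and 467 CPM at 1 day and 219 and 227 CPM at 3 days (log2 fold change -0.94 ± 0.07 (SE), edgeR adjusted p = 2.0e-11). Lipocalin 2 (Lcn2) was at 15.98 and 17.9 CPM at 1 day and 31.6 and 31.8 CPM at 3 days and rose (log2 fold change 0.90 ± 0.09 (SE), edgeR adjusted p = 2.5e-09). So acute phase genes moved in both directions without overlap between times, and all 3 differed from DMSO, by -0.90 (Steap4), -0.59 (Hp) and 0.74 (Lcn2).

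Early targets of cyclic AMP were divided, 8 lower and 6 higher of 17 tested of 19 listed (47.1% and 35.3%, beside 23.4% and 22.9% of all genes). Their median of -0.04 changed sign without the first 1-day BML-260 library. Rgs2, which damps G protein signals, was at 104 and 106 CPM at 1 day and 53.4 and 64.97 CPM at 3 days (log2 fold change -0.82 ± 0.07 (SE), edgeR adjusted p = 1.5e-10). The nuclear receptor Nr4a1 fell by 0.57 and the phosphodiesterase Pde7b by 1.44 from 2.76 and 2.69 CPM. Sik1, a kinase that feeds back on cyclic AMP, was at 32.8 and 30.5 CPM at 1 day and 59.3 and 55.1 CPM at 3 days (log2 fold change 0.85 ± 0.07 (SE), edgeR adjusted p = 9.4e-11), and Fosl2 rose by 0.57. With DMSO 4 rose and 2 fell. The test of the difference gave 7 members lower with BML-260 and 1 higher (Per1), beside 4.51% and 3.93% of all genes. Rgs2 was at 129.7 and 131 CPM at 1 day and 141 and 149 CPM at 3 days with DMSO and differed by -0.98 ± 0.09 on the log2 scale (SE, edgeR adjusted p = 1.9e-07). Rasd1 differed by -0.67, Nr4a1 by -0.66 (0.051 under DESeq2) and Pde7b by -1.37.

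Of 22 AP-1 and immediate early genes 11 rose and 2 fell (median 0.25), and in the DMSO libraries 10 rose and 4 fell (median 0.32). Ier3 was at 28.7 and 24.8 CPM at 1 day and 56.9 and 52.2 CPM at 3 days (log2 fold change 1.03 ± 0.07 (SE), edgeR adjusted p = 1.2e-11). Mafk, a small Maf factor, was at 17.5 and 20.4 CPM at 1 day and 42.9 and 48.5 CPM at 3 days (log2 fold change 1.27 ± 0.10 (SE), edgeR adjusted p = 5.9e-11). Junb rose by 0.88 and Maff by 0.59. For Ier3 the difference from DMSO was -0.01 ± 0.11 on the log2 scale (SE, edgeR adjusted p = 0.97), and Mafk differed by 0.69 ± 0.15 on the log2 scale (SE, edgeR adjusted p = 0.0043), a call lost without the second DMSO library at 1 day (adjusted p 0.099). Of 23 tested dual-specificity phosphatases 8 rose and 5 fell (34.8% and 21.7%, beside 22.9% and 23.4% of all genes). The median was -0.05, Dusp1 falling by 0.64 and Dusp12 rising by 0.77.

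In insulin and IGF signalling, 6 of 26 genes rose and 8 fell (23.1% and 30.8%), close to the 22.9% and 23.4% of all genes. Foxo3, a factor held back by insulin, was at 22.7 and 23.9 CPM at 1 day and 48.8 and 46.6 CPM at 3 days (log2 fold change 1.03 ± 0.08 (SE), edgeR adjusted p = 3.3e-11). Pik3r1, the regulatory subunit of phosphoinositide 3-kinase, was at 131 and 124 CPM at 1 day and 76.7 and 67.5 CPM at 3 days (log2 fold change -0.82 ± 0.06 (SE), edgeR adjusted p = 5.5e-11). Akt2 fell by 0.40 and Igf2r rose by 0.47. The rise of Foxo3 was larger than with DMSO by 0.50 ± 0.11 on the log2 scale (SE, edgeR adjusted p = 0.0054). Of 25 nuclear receptor and glucocorticoid genes 8 rose and 7 fell (32% and 28%, beside 22.9% and 23.4% of all genes). Among those that fell were Nr1h3 (LXR alpha), by 0.83, and Rxrg, by 1.25. Of 28 Wnt pathway genes 6 rose and 3 fell (21.4% and 10.7%, beside 22.9% and 23.4% of all genes), with Fzd4 lower by 0.64.

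Of 45 cell cycle and DNA replication genes 19 rose and 10 fell (42.2% and 22.2%, beside 22.9% and 23.4% of all genes), with a median of 0.10. Cdt1, which licenses replication, was at 91.8 and 102 CPM at 1 day and 125 and 135 CPM at 3 days (log2 fold change 0.42 ± 0.06 (SE), edgeR adjusted p = 9.9e-07), and Cdc20, an activator of the anaphase complex, rose by 0.39. With DMSO 6 rose and 10 fell, and the differences were 0.40 ± 0.08 on the log2 scale (SE, edgeR adjusted p = 0.0023) and 0.43 ± 0.08 on the log2 scale (SE, edgeR adjusted p = 0.0017). Among 20 tested p53 targets 10 rose and 3 fell (50% and 15%), with Trp53 higher by 0.52, Gadd45a by 0.46 and Phlda3 lower by 0.62. Xenobiotic metabolism genes fell in 14 of 29 and rose in 5 (median -0.26), Adh1 being at 77.3 and 89.2 CPM at 1 day and 47.3 and 41.3 CPM at 3 days (log2 fold change -0.91 ± 0.07 (SE), edgeR adjusted p = 9.8e-11). Of 32 tested targets of the antioxidant factor NRF2 11 fell and 10 rose (34.4% and 31.25%, beside 23.4% and 22.9% of all genes). Osgin1 and Gsta4 were among those that fell (log2 fold changes -1.31 and -0.84).

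The genes whose change over time differed most from that with DMSO, among named loci that also changed with BML-260, reached 10 CPM in 1 of its groups and did not overlap between its times, fell into a rising and a falling set. Lrp8 was at 4.54 and 3.44 CPM at 1 day and 5.19 and 4.69 CPM at 3 days with DMSO, close to its level at 1 day with BML-260, and the difference was 1.16 ± 0.23 on the log2 scale (SE, edgeR adjusted p = 0.0025). Atf3, a stress factor, was at 13.9 and 13.3 CPM at 1 day and 23.9 and 22.8 CPM at 3 days with BML-260 and at 8.09 and 7.52 CPM at 1 day and 7.73 and 6.96 CPM at 3 days with DMSO. It rose with BML-260 (0.78) and did not pass with DMSO (-0.09), and the difference was 0.86 ± 0.16 on the log2 scale (SE, edgeR adjusted p = 9.7e-04). Dusp8, a phosphatase of stress kinases, was at 9.34 and 8.82 CPM at 1 day and 12.9 and 12.1 CPM at 3 days with BML-260 and at 7.57 and 8.38 CPM at 1 day and 6.05 and 5.67 CPM at 3 days with DMSO, where it fell. That difference was 0.91 ± 0.21 on the log2 scale (SE, edgeR adjusted p = 0.0079), while its rise with BML-260 (edgeR adjusted p = 0.0077) was lost without the second library at 1 day (0.055) or the first at 3 days (0.050), and the difference without the second DMSO library at 1 day (0.056).

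Cdr2 differed by 0.77, Ghrh by 0.98 and Erdr1 by 0.82. The calls for Ghrh and Erdr1 did not hold under DESeq2 (adjusted p 0.067 and 0.074) or without the second DMSO library at 1 day (0.17 and 0.25), and each was lost without 1 or more other libraries as well (0.055 for Ghrh, 0.058 to 0.11 for Erdr1). Erdr1 had no row in the annotation used.

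Prox1 (chr1:190118035-190170714), a homeobox factor, was at 12.7 and 14.7 CPM at 1 day and 6.58 and 6.19 CPM at 3 days with BML-260 and at 17.2 and 17.6 CPM at 1 day and 16.99 and 17.2 CPM at 3 days with DMSO. It fell by 1.10 with BML-260, its change with DMSO was -0.03 (edgeR adjusted p = 0.86), and the difference was -1.08 ± 0.15 on the log2 scale (SE, edgeR adjusted p = 7.7e-05). Hcar2, the receptor for hydroxybutyrate and niacin that restrains lipolysis, was at 10.7 and 12.1 CPM at 1 day and 8.39 and 7.05 CPM at 3 days with BML-260 and at 11.6 and 14.4 CPM at 1 day and 16.99 and 18.6 CPM at 3 days with DMSO. It fell with BML-260 and rose with DMSO, and the difference was -1.02 ± 0.18 on the log2 scale (SE, edgeR adjusted p = 6.8e-04). Dnajc28 was at 26.8 and 29.5 CPM at 1 day and 14.04 and 13.9 CPM at 3 days with BML-260 and at 25.6 and 22.98 CPM at 1 day and 23.1 and 23.3 CPM at 3 days with DMSO, with a difference of -0.95 ± 0.13 on the log2 scale (SE, edgeR adjusted p = 4.4e-05). Retn, Gbp3 and Rgs2 complete the 6 genes lowest by this measure; Pde7b and Adrb3, under 10 CPM with BML-260, had lower differences (-1.37 and -1.26). Exons of Prox1 and Dusp8 overlap those of other annotated genes.

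**Figure D5:**
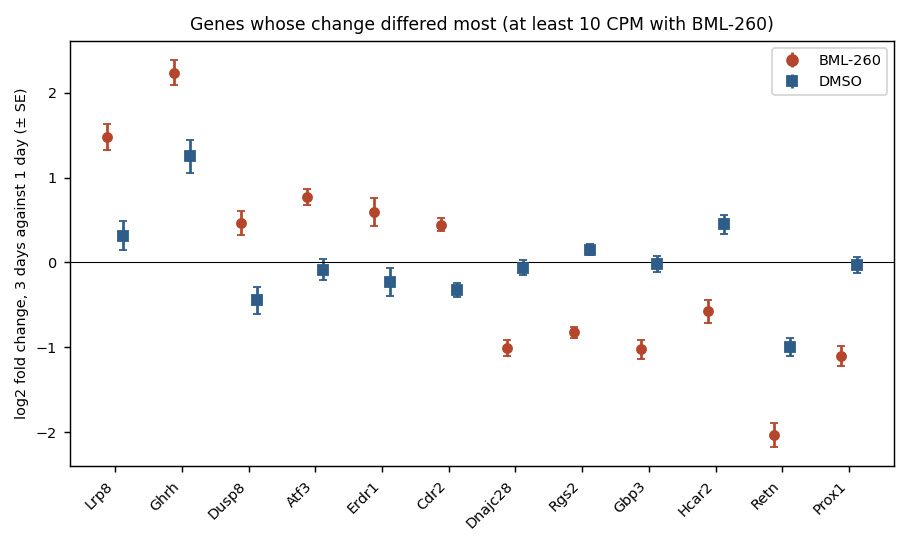
Log2 fold change from 1 to 3 days with its standard error for the 6 genes whose change was highest and the 6 whose change was lowest with BML-260 (circles) relative to DMSO (squares), among genes called in both tests with at least 10 CPM in a BML-260 group and no overlap between its times. Lrp8 stood at 1.48 against 0.32, Prox1 at -1.10 against -0.03, and Hcar2 at -0.57 against 0.45.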

How the data were processed

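The deposited table holds raw read counts per gene symbol for 10 libraries of total RNA, 2 in each of 5 groups. The submitters' processing notes list TopHat2 2.1.1, bcl2fastq 2.17.1.14, DESeq2 and bedtools, and the mouse builds mm9 and mm10. What each build was used for, and the annotation, the counting rule and the use of strand, are not stated there or in the labels. The counts were used as the authors deposited them. Of 24640 genes, 15212 passed the edgeR filter (minimum count 10, minimum total 15). They were fitted with edgeR 4.0.16 (R 4.3.3, limma 3.58.1) by the quasi-likelihood test, with TMM scaling and 1 mean for each of the 5 groups (10 libraries, leaving 5 residual degrees of freedom), and p-values were adjusted by the Benjamini-Hochberg method over all genes tested, with a threshold of 0.05. The contrasts were 3 days minus 1 day with BML-260, the same with DMSO, which shares no library with it, and the difference of both. CPM were scaled by TMM, and SE is that of the log2 fold change, derived from its size and edgeR's F statistic. For the difference of Ucp1, very near 0, this gives no usable SE, and none is printed. DESeq2 1.42.0, 2 other scalings, 2 other filters, a fit of the compared groups only, a replicate block and leaving out each library were the alternatives.

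Total counts per library ran from 16955918 to 21185675, and the common biological coefficient of variation was 3.39%. Symbols turned into dates by spreadsheet software made 26 rows. Checked on simulated counts, the change with BML-260 was found for 96% of the genes given a log2 change of 0.5 and for 100% of those given 1, with 4.85% false calls, over 14975 genes. Each size was given to 100 genes averaging at least 10 CPM, far fewer than the genes called in the data. The counts were drawn with the spread estimated from these libraries. The 43 gene lists hold 1315 members, of which 1267 are in the table and 1173 were tested; they and the comparison were chosen with earlier results of these data known. Named genes were the 12 most raised and 12 most lowered with BML-260 (called, at least 10 CPM in the higher group, libraries not overlapping, predicted loci passed over), the 6 highest and 6 lowest differences from DMSO under the same limits, up to 4 called members of each list by smallest p, and 8 genes always reported, Ucp1, Ppargc1a, Dio2, Cidea, Adipoq, Fabp4, Adrb3 and Dusp22. These were 184 genes, leaving out some that are not reported here, and 53 more list members were named after their values were seen. Genes were placed with the GENCODE M21 annotation (GRCm38), where 234 of 237 named genes had 1 match, and promoters are those of RefSeq on GRCm38.p6. Exons of 73 named genes overlap those of another gene, and the caution on reads of such pairs holds for all of them. Mmp11, Cdc20, Manf, Syvn1, Esrra, Junb, Dbp, Hspd1 and Hspe1 are among the 73.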

Additional observations from a re-analysis of the deposited data

Results flagged for a closer look

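From 1 to 3 days, 1284 genes changed by different amounts with BML-260 and with DMSO, by edgeR's test of the difference between both changes at an adjusted p under 0.05. Of the named genes 96 were among them, and each value below is the log2 change with BML-260 minus that with DMSO, so a negative value is a change that was lower with BML-260.

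Among genes outside the lists the difference was 1.16 for Lrp8, 0.98 for Ghrh, 0.82 for Erdr1, 0.77 for Cdr2, -0.65 for Anxa8, -0.82 for Ffar2, -0.87 for Arl4a, -0.95 for Dnajc28 and -1.08 for Prox1. The named adipocyte identity genes were lower: Adipoq -0.71, Aqp7 -0.81, Cebpa -0.44, Cfd -0.59, Fabp4 -0.40, Gpd1 -0.32, Lipe -0.46, Lpl -0.30, Pparg -0.31 and Retn -1.03. So were the named thermogenic genes Adrb3 at -1.26, Kcnk3 at -0.32, Letmd1 at -0.21, Ppara at -0.45 and Ppargc1a at -0.29. Genes of lipid droplets gave -1.02 for Hcar2, -0.35 for Mgll, -0.42 for Plin4 and -0.42 for Pnpla3. Those of lipid synthesis gave 0.25 for Fads1, 0.24 for Fasn and -0.43 for Thrsp, and those of sterol synthesis 0.40 for Lss, 0.54 for Sqle and 0.54 for Srebf2.

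In mitochondria and peroxisomes the difference was -0.30 for Acadm, -0.40 for Hsdl2, -0.33 for Ndufb3, -0.24 for Mrpl18, -0.37 for Mrpl51, -0.26 for Scp2 and 0.51 for Acox2. Ndufb3 was 1 of 2 oxidative phosphorylation genes called lower, against 7 called higher. In glycolysis and low-oxygen genes the difference was 0.33 for Gpi1, 0.38 for Slc2a1, -0.25 for Pfkfb1, 0.71 for Ndrg1, 0.49 for Ddit4 and -0.88 for Angptl4. The ER genes Hspa5, Hyou1, Manf, Sdf2l1 and Syvn1 were higher by 0.40, 0.46, 0.47, 0.46 and 0.42. The stress response genes Aldh18a1, Atf3 and Nupr1 were higher by 0.34, 0.86 and 0.26, Gadd45a by 0.31, the proteasome subunit Psmd8 by 0.34, Sqstm1 by 0.24 and Ulk1 by 0.36.

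Clock genes gave 0.60 for Per1, 0.33 for Bhlhe40, 0.50 for Bhlhe41, 0.31 for Nfil3, -0.24 for Per3 and -0.21 for Tef. The early genes gave -0.32 for Dusp1, -0.26 for Fosl2, -0.66 for Nr4a1, -1.37 for Pde7b, -0.67 for Rasd1, -0.98 for Rgs2, 0.91 for Dusp8 and 0.69 for Mafk. Immune and acute phase genes gave -0.50 for Gbp2, -1.0004 for Gbp3, -0.66 for Ifit3, -0.62 for Igtp, -0.86 for Ccl2, -0.32 for C3, -0.59 for Hp, 0.74 for Lcn2 and -0.90 for Steap4.

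In the remaining lists the difference was -0.21 for Akt2, 0.50 for Foxo3, -0.31 for Nr1h3, -0.26 for Fzd4, 0.43 for Cdc20, 0.40 for Cdt1, -0.48 for Adh1 and -0.62 for Mgst2. Matrix genes and markers of other cells gave 0.36 for Col1a1, 0.30 for Plod1, -0.65 for Mmp11, -0.51 for Mcam, 0.39 for Notch3 and -0.46 for Wnt5a.

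Of these 96 calls 38 missed the threshold under at least 1 alternative. Those of Akt2, Letmd1, Mrpl18, Pfkfb1 and Tef were lost without any 1 of the 8 BML-260 and DMSO libraries (adjusted p 0.050 to 0.30) and under DESeq2 (0.066 to 0.20). Those of Fosl2, Nfil3, Ppargc1a and Wnt5a were lost without any 1 of 7 libraries, those of Bhlhe41, Nr1h3 and Nupr1 of 6, those of Anxa8, Dusp1, Fads1, Fzd4, Per3 and Scp2 of 5, and those of Erdr1, Gadd45a, Ifit3, Kcnk3, Notch3 and Sqstm1 of 4. Fasn and Mgll lost theirs without any 1 of 3 libraries, Ghrh, Gpd1 and Sdf2l1 of 2, and Acadm, Col1a1, Dusp8, Igtp, Lpl, Mafk and Ndufb3 without 1 library. DESeq2 did not call Anxa8, Bhlhe41, Cebpa, Col1a1, Dusp1, Erdr1, Fosl2, Fzd4, Gadd45a, Ghrh, Gpd1, Ifit3, Igtp, Nfil3, Nr1h3, Nr4a1, Ppargc1a, Sdf2l1 and Wnt5a either (adjusted p 0.051 to 0.18).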

How the results depend on the processing

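With BML-260, between 6885 and 7165 genes changed over time under 2 other scalings, 2 other filters on low counts and a fit of only these groups, 5580 to 6111 with 1 BML-260 library left out, and 5348 by DESeq2. Upper-quartile scaling called 2979 higher and 4186 lower. The count at a log2 change of at least 1 was 574 to 733 with 1 library left out and 418 by DESeq2. With DMSO the count was 3803 to 4096 with 1 library left out and 3663 by DESeq2, and the shared count was 2894 to 3605 and 2699. The count for the difference was 659 to 1163 with 1 library left out and 721 by DESeq2 (414 higher, 307 lower). It was 659 without DMSO 1 day replicate 2, 678 without DMSO 3 days replicate 1, 760 without BML-260 3 days replicate 1 and 794 without DMSO 3 days replicate 2, and fitted on only the groups compared it was 1548, with 926 higher and 622 lower against 598 and 686. DESeq2 gave no adjusted p for some genes; the cause of these differences in count was not tested. Of 228 named changes over time 14 missed the threshold under at least 1 of 11 alternatives, and of 96 named differences 38 did under at least 1 of 15; 0 reversed. Between the days of an arm the shared replicate numbers gave no sign of pairing. There, deviations of same-numbered libraries from their group means correlated at -0.019 with BML-260 and 0.018 with DMSO across genes. Pairing of BML-260 with DMSO libraries of the same day was not tested. The fit with a replicate block called 7157, 5455 and 1474 genes for both changes and their difference, and no named call was lost. Whether depth limits the calls at low levels was not tested; on simulated counts, differences between arms of 0.5 on the log2 scale were found in 77% of cases, and changes over time in 96%.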

Other observations

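Markers of skeletal muscle, endothelial cells, macrophages and Schwann cells were few and low, but some passed the test over time with BML-260. Of 4 tested skeletal muscle markers 2 rose, Actn3 from 0.235 and 0.317 CPM to 0.658 and 0.805 CPM and Acta1 from 0.646 and 0.106 CPM to 1.43 and 1.01 CPM, levels of few counts at which neither call held under DESeq2 (adjusted p 0.15 and 0.085). Of 3 endothelial markers Egfl7 fell (log2 fold change -0.44), and of 2 macrophage markers 1 rose and Cd14 fell (-0.93). Of 3 Schwann cell markers 2 fell. Each of the 4 genes' calls named here was lost without at least 1 BML-260 library (adjusted p 0.051 to 0.22). Of 14 tested complement genes 5 fell and 2 rose (35.7% and 14.3%, beside 23.4% and 22.9% of all genes), with a median of -0.08. C3, the central complement protein, was at 562 and 599 CPM at 1 day and 423 and 400.0 CPM at 3 days with BML-260 (log2 fold change -0.50 ± 0.05 (SE), edgeR adjusted p = 1.4e-09) and at 934 and 955 CPM at 1 day and 852 and 817 CPM at 3 days with DMSO. The Schwann cell markers summed to 16.3 and 14.4 CPM at 1 day and to 9.65 and 10.3 CPM at 3 days with BML-260, and to between 14.4 and 15.6 CPM in all 4 DMSO libraries.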
